A study of Homo sapiens with 8 samples.

Results

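The subject is a set of 10 genes that encode alternative subunits of the BAF (SWI/SNF) chromatin remodelling complex in human dopaminergic neurons. They were chosen by symbol, not by their values, from the 58395 genes of the deposited count table, and all 10 had reads in every library. The set holds 3 progenitor forms (ACTL6A, PHF10 and SS18), 4 neuronal forms (ACTL6B, DPF1, DPF3 and SS18L1), both catalytic ATPases (SMARCA2 and SMARCA4) and DPF2, a broadly expressed relative of DPF1 and DPF3. The neurons were iCell DopaNeurons, a commercial product made from human induced pluripotent stem cells, grown on coated coverslips. The GDNF group (4 libraries) grew on a nanostructure that mimics glial cell line-derived neurotrophic factor, and the CT group (4 libraries) is read here as the scrambled form of that nanostructure, since the labels do not spell out CT. RNA was taken on day 4, with a single change of medium on the way, and every sample carries the same treatment label of 10.73 mM. The series text mentions 3 biological replicates per condition, against 4 numbered libraries per group here. The labels do not say whether the libraries came from separate cultures, so the spread behind each p-value is that between these 8 samples and may be technical. No pair of libraries within a group was alike to within sampling noise, but GDNF replicates 1 and 2 came closest, with a chi-square per degree of freedom of 2.60 over genes, followed by CT replicates 1 and 4 with 5.69, against 13.7 to 151 for the other pairs. All 8 libraries are of 1 product line, with no progenitor culture beside them, so the progenitor state itself was not measured.

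BAF complexes use the energy of ATP to move nucleosomes, and they are assembled from gene families whose members often take the same place in the complex. In the mouse brain, neural progenitors carry complexes with ACTL6A, PHF10 and SS18, and as cells leave the cell cycle these are replaced by ACTL6B, DPF1 or DPF3, and SS18L1. The neuronal complex is known for its part in dendrite growth. The exchange of ACTL6A for ACTL6B is controlled in part by microRNAs, among them the 3p strand of miR-9, which act on the 3′ untranslated region (UTR) of the ACTL6A messenger RNA once the repressor REST no longer silences the microRNA genes.

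Shown are the sequence of that microRNA and the places that match its seed in the 3′ UTRs of ACTL6A and PHF10. In the microRNA the capitals are the seed, bases 2 to 8. In the ACTL6A sites the capitals are the letters AGCTTTA, which pair with that seed.
hsa-miR-9-3p: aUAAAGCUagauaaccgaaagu
ACTL6A site nearer the stop codon: tacgtttcatAGCTTTAgtatactc
ACTL6A site farther from the stop codon: aattttttaaAGCTTTAactggctc
PHF10 site: gtctgctaagAGCTTTAaatggaag
The microRNA sequence is RefSeq's (GRCh38.p14), and the sites were read from GENCODE transcripts (GRCh38) with 10 bases before and 8 after the match. The ACTL6A sites lie at chr3:179588049-179588073 and chr3:179588138-179588162 on the plus strand, in a 3′ UTR of 398 bases. The PHF10 site lies at chr6:169708834-169708858 on the minus strand, in a 3′ UTR of 3187 bases. The search used the transcript with the longest 3′ UTR of each gene, on the transcript strand only. ACTL6A had 2 matches, PHF10 had 1 and the other 8 genes had 0. Among 2178 coding genes whose 3′ UTR was within 25% of the length of that of ACTL6A, 2.94% had 1 match or more and 0.0459% had 2 or more. For the much longer 3′ UTR of PHF10 the share with 1 match or more was 25.5% of 2689 genes. ACTL6B has a 3′ UTR of 149 bases, for which that share was 0.321% of 935 genes. Its lack of a match therefore does not set it apart from genes of similar length. Over all 19132 coding genes searched 13.5% had a match, against 2 of the 10 members. A match of letters is a description and shows no binding, and mature microRNAs were not measured in these polyA libraries.

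Total counts were 29532090 to 34559240 in GDNF and 28698283 to 31692788 in CT. The cells carried the transcripts their label names: TH, which encodes the enzyme that limits the rate of dopamine production, averaged 219 ± 40.3 CPM in GDNF and 220 ± 74.8 CPM in CT (CPM are read counts scaled to the size of the library; SD, n = 4 each), although the dopamine transporter SLC6A3 averaged under 1 CPM in both. CT replicate 2 was unlike the rest. Relative to the mean of the other 7, its genes shifted with the GC content of the transcript, by a median log2 difference of -0.86 in the lowest of 4 equal GC classes and of 0.56 in the highest. Its log CPM correlated with that of each other library at a median of 0.963, against 0.987 to 0.989 for the others. Some of the values that rest on CT replicate 2 are given with and without it. Other means, SDs and ranges are given only with it, among them the CT mean of TH, which was 325 CPM in that library.

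ACTL6B, SS18L1 and DPF1 were more abundant than their progenitor counterparts ACTL6A, SS18 and PHF10 in every library, whereas DPF3 was lower than PHF10. Per length of transcript, in TPM (read counts divided by the union of annotated exons and scaled to the same total in each library), the actin-related subunit ACTL6B stood at 277 ± 44.3 TPM over the 8 libraries and SS18L1 at 167 ± 11.7 TPM. Their progenitor partners ACTL6A and SS18 stood at 24.4 ± 5.31 and 16.998 ± 2.83 TPM. DPF1 stood at 121 ± 20.5 TPM and its progenitor counterpart PHF10 at 32.7 ± 8.44 TPM. The second neuronal member of that family, DPF3, was the lowest of the 10 genes at 2.26 ± 0.404 TPM. Percentiles were taken over the genes tested that had an annotated length (19974 of 19999). ACTL6B lay at percentile 97.4, SS18L1 at 94.5 and DPF1 at 91.4, while PHF10 lay at 69.5, ACTL6A at 63.0, SS18 at 55.0 and DPF3 at 18.2. As a share of the summed TPM of the 7 exchanged genes, the 4 neuronal forms held 87.9% ± 2.08 in GDNF and 88.7% ± 3.92 in CT (SD, n = 4 each), with a range over the 8 libraries of 85.6% to 94.4%, or to 90.5% without CT replicate 2. With the GC and length trend of each library subtracted that range was 88.1% to 89.5%. This share pools the subunit families and leaves out DPF2, so it does not hold for each family. Of the summed TPM of PHF10, DPF1, DPF2 and DPF3, DPF1 plus DPF3 held 51.0% to 64.8% over the 8 libraries. Without CT replicate 2 they held at most 59.3%. In bulk RNA, fewer cells of a type and less RNA per cell cannot be told apart.

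**Figure D1:**
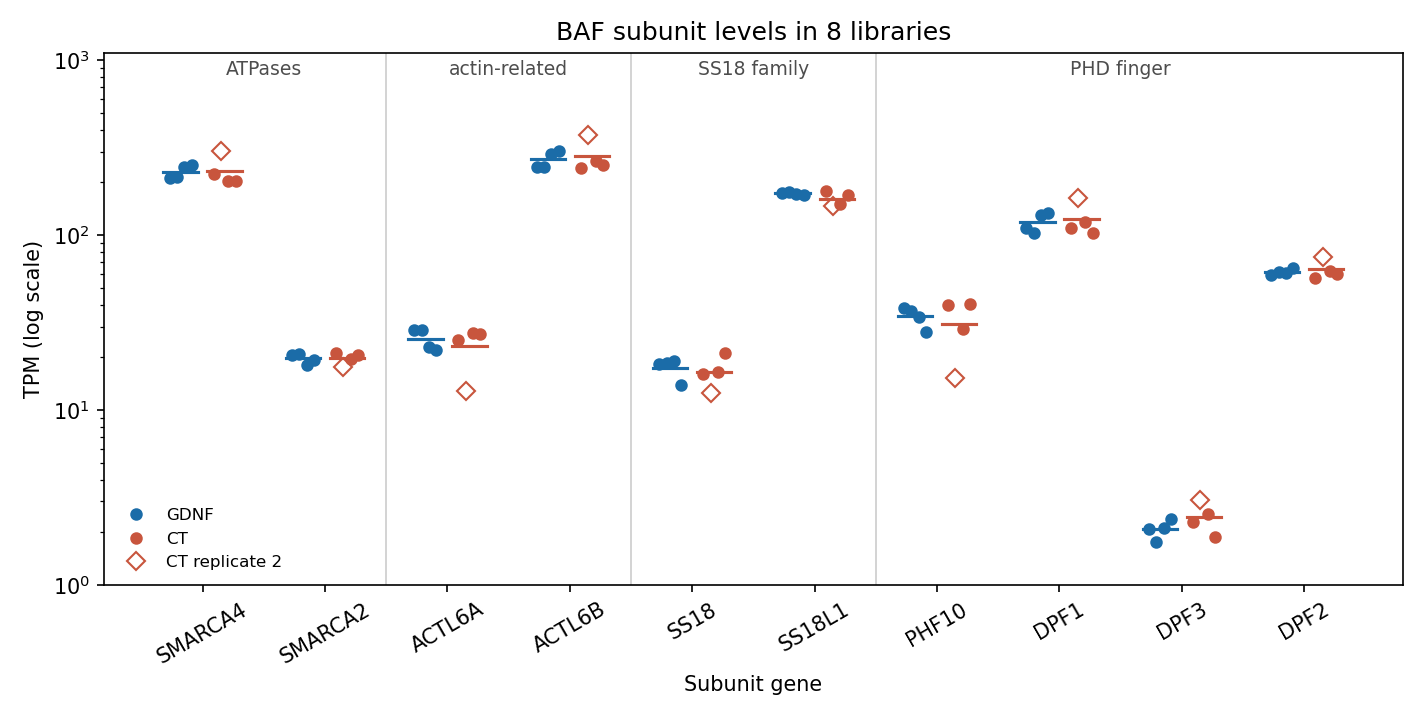
Levels of the 10 subunit genes in TPM (log axis) in each library, grouped by subunit family, with the group mean as a bar (n = 4 each). ACTL6B, SS18L1 and DPF1 lie above ACTL6A, SS18 and PHF10 in all 8 libraries, and CT replicate 2 (open diamonds) is the lowest library for ACTL6A, SS18 and PHF10.

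The order of the 10 levels per length was ACTL6B, SMARCA4, SS18L1, DPF1, DPF2, PHF10, ACTL6A, SMARCA2, SS18 and DPF3. The ranges over the 8 libraries separated SMARCA4 from SS18L1, DPF1 from DPF2, DPF2 from PHF10 and SS18 from DPF3. The ranges of ACTL6B and SMARCA4 overlapped, although ACTL6B was the higher in 8 of 8 libraries. SS18L1 and DPF1 also overlapped (SS18L1 higher in 7 libraries), as did PHF10 and ACTL6A (8), ACTL6A and SMARCA2 (7), and SMARCA2 and SS18 (6). These places depend on the length used: over the longest annotated transcript the order began with SMARCA4 at 476 TPM, ACTL6B at 325 TPM and DPF1 at 186 TPM, since the exon union of SMARCA4 spans 15778 bases and its longest transcript 5791.

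ACTL6A and ACTL6B encode actin-like proteins of the same place in the complex. ACTL6A also belongs to other remodelling complexes, whereas ACTL6B is largely restricted to neurons. ACTL6B (chromosome 7, 100643097 to 100656461 in GRCh38) had 121, 118, 153 and 157 CPM in GDNF replicates 1 to 4, against 122, 205, 139 and 125 CPM in CT replicates 1 to 4. The groups overlapped, and CT replicate 2 was the highest of all 8. ACTL6A (chromosome 3, 179562880 to 179588408) had 21.7, 21.2, 18.6 and 17.5 CPM in GDNF, against 19.4, 10.8, 22.3 and 20.6 CPM in CT. Here CT replicate 2 was the lowest, and the other 7 libraries lay between 17.5 and 22.3 CPM. Of the exonic bases of ACTL6A, 5.99% lie antisense to other genes, and the strand setting of the counting is not given in the sources used here.

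The length-scaled ratio of ACTL6B to ACTL6A was 8.57, 8.57, 12.7 and 13.7 in GDNF, against 9.64, 29.1, 9.58 and 9.32 in CT. It averaged 10.9 ± 2.72 in GDNF and 14.4 ± 9.80 in CT (SD, n = 4 each), and the difference of the mean log2 ratios was -0.24 (exact permutation test, two-sided, p = 0.743). The smallest p that this test allows is 0.0286, and after Benjamini-Hochberg adjustment over the 4 ratios tested every p was 1. Without CT replicate 2 the CT mean was 9.51 ± 0.171 (n = 3) and the difference changed sign to 0.16 (exact p = 0.457). ACTL6B made up 89.6% to 96.7% of the sum of both genes over the 8 libraries, and at most 93.2% without CT replicate 2. Over the longest transcripts the ratio ranged from 6.89 to 23.4.

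SS18 and SS18L1 encode related subunits without a DNA-binding domain of their own. SS18L1, also called CREST, was first described as a calcium-responsive activator in neurons. SS18L1 (chromosome 20, 62143795 to 62182484) was the steadiest of the neuronal forms, with 182, 182, 194 and 186 CPM in GDNF, against 190, 172, 169 and 179 CPM in CT. Its coefficient of variation over the 8 libraries was 4.62%, where counting alone gives 1.32%. SS18 (chromosome 18, 26016253 to 26091217) had 23.0, 23.2, 25.8 and 18.5 CPM in GDNF, against 20.6, 17.8, 22.1 and 26.9 CPM in CT. Both groups spanned nearly the same range, with the highest library in CT replicate 4 and the lowest in CT replicate 2.

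The length-scaled ratio of SS18L1 to SS18 was 9.54, 9.48, 9.05 and 12.1 in GDNF, against 11.1, 11.7, 9.20 and 8.04 in CT. It averaged 10.1 ± 1.41 in GDNF and 10.02 ± 1.70 in CT (n = 4 each), with a log2 difference of 0.012 (exact permutation test, p = 0.943). SS18L1 made up 88.9% to 92.4% of the sum of both genes. Over the longest transcripts the ratio was lower, from 5.07 to 7.65 over the 8 libraries, against 8.04 to 12.1 over the exon unions. Leaving out GDNF replicate 4, CT replicate 3 or CT replicate 4 turned this difference negative, to -0.083, -0.024 and -0.089.

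PHF10, DPF1, DPF2 and DPF3 carry PHD fingers, domains that read modified histone tails. Their levels are compared here as those of a family, and which complex each protein entered was not measured. DPF1 (chromosome 19, 38211006 to 38229714) had 108, 100.3, 138 and 138 CPM in GDNF, against 110, 180, 125 and 102 CPM in CT. PHF10 (chromosome 6, 169703905 to 169725566) had 43.9, 41.0, 41.5 and 33.5 CPM in GDNF, against 46.3, 19.4, 35.3 and 45.9 CPM in CT. For both genes the groups overlapped and CT replicate 2 was the extreme library, the highest for DPF1 and the lowest for PHF10. PHF10 shares 6.15% of its transcript 50-mers with other annotated genes. Of its exon sequence, 3.98% overlaps genes on the opposite strand and 2.64% a gene on the same strand. What part of its reads came from such sequence was not measured, so its level is uncertain.

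DPF2 (chromosome 11, 65333754 to 65353249) had 94.2, 96.5, 104 and 108 CPM in GDNF, against 92.4, 134, 105 and 95.9 CPM in CT. Apart from CT replicate 2 the libraries lay between 92.4 and 108 CPM. DPF3 (chromosome 14, 72619296 to 72894116) rested on 86 to 104 reads per library in GDNF and 85 to 145 in CT, or 2.97, 2.46, 3.19 and 3.51 CPM in GDNF, against 3.29, 4.82, 3.84 and 2.68 CPM in CT. Counting alone gives DPF3 a coefficient of variation of 9.79%, against the 22.2% observed. Of the summed TPM of these 4 genes, DPF2 held 26.8% to 30.4%, PHF10 5.93% to 19.6% and DPF3 0.867% to 1.20%. The low end of PHF10 was CT replicate 2 alone, and the other 7 libraries held 12.3% to 19.6%. With the GC and length trend subtracted PHF10 held 13.3% to 15.4% over all 8.

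The length-scaled ratio of DPF1 plus DPF3 to PHF10 was 2.89, 2.87, 3.89 and 4.84 in GDNF, against 2.79, 10.9, 4.17 and 2.60 in CT. It averaged 3.62 ± 0.943 in GDNF and 5.12 ± 3.93 in CT (n = 4 each), with a log2 difference of -0.27 (exact permutation test, p = 0.8). Without CT replicate 2 the CT mean was 3.19 ± 0.854 (n = 3) and the difference was 0.18 (exact p = 0.514). Over the longest transcripts the ratio was higher, from 4.18 to 17.6 over the 8 libraries, against 2.60 to 10.9 over the exon unions.

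SMARCA4 (BRG1) and SMARCA2 (BRM) are the alternative ATPases, the motor of the complex. SMARCA4 is needed in dividing progenitors, and SMARCA2 is usually described as the form that gains in differentiated cells. SMARCA4 (chromosome 19, 10960825 to 11079426) had 685, 684, 852 and 861 CPM in GDNF, against 738, 1100.4, 702 and 665 CPM in CT. SMARCA2 (chromosome 9, 1980290 to 2193624) had 78.5, 79.0, 74.1 and 77.5 CPM in GDNF, against 82.8, 75.5, 79.6 and 78.9 CPM in CT. SMARCA2 was the least variable of the 10 genes in CPM, with a coefficient of variation of 3.37%, but with the GC and length trend of each library subtracted it reached 9.76% and DPF2 was the least variable at 3.97%. SMARCA4 reached 18.8% in CPM with CT replicate 2 and 11.1% without it. Per length, SMARCA4 exceeded SMARCA2 9.94-fold to 17.2-fold over the 8 libraries, and at most 13.6-fold without CT replicate 2. SMARCA2 made up 5.499% to 9.14% of the sum of both, and at least 6.87% without that library. The ratio of SMARCA2 to SMARCA4 was 0.0972, 0.0981, 0.0738 and 0.0763 in GDNF, against 0.0951, 0.0582, 0.0962 and 0.101 in CT, so GDNF replicates 3 and 4 and CT replicate 2 were low and the groups overlapped. It averaged 0.0863 ± 0.0131 in GDNF and 0.0875 ± 0.0197 in CT (n = 4 each), with a log2 difference of 0.00060 (exact permutation test, p = 1). Without CT replicate 2 the difference was -0.18 (exact p = 0.314), and it was also negative without GDNF replicate 1 (-0.061) or GDNF replicate 2 (-0.065).

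**Figure D2:**
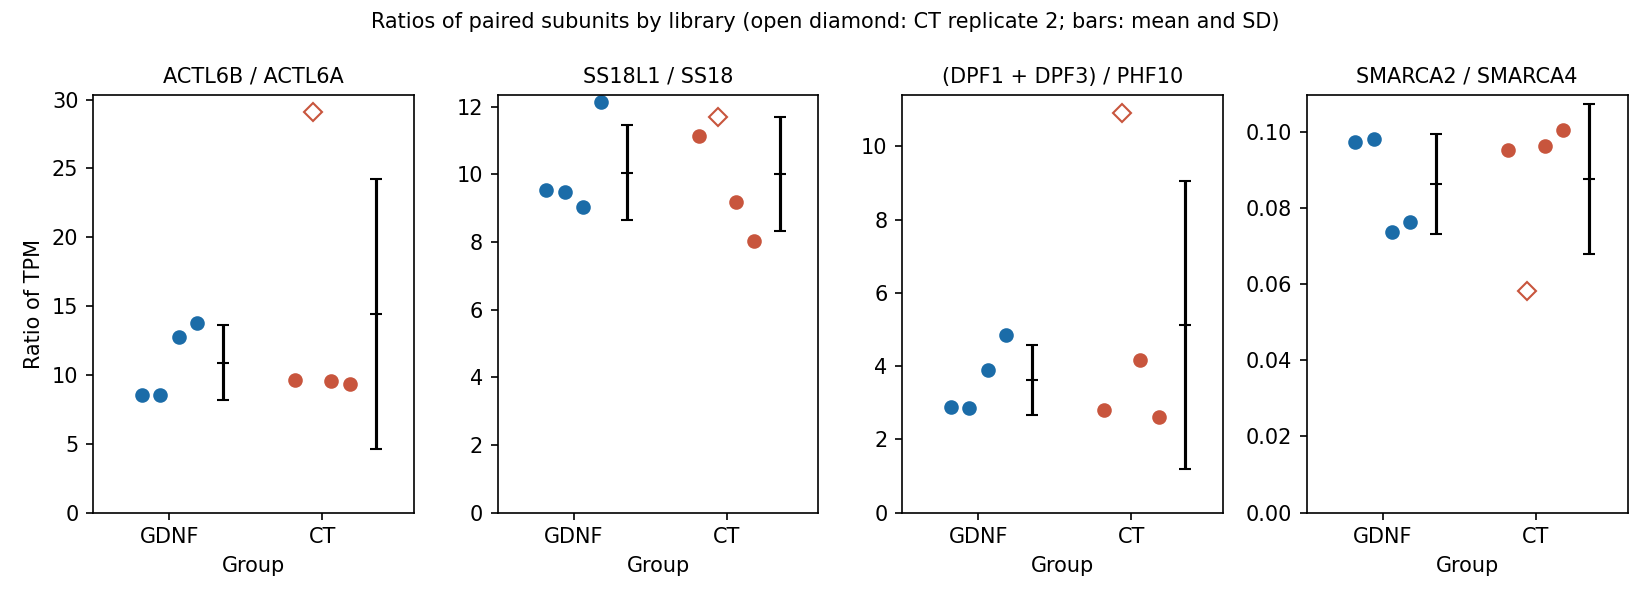
Length-scaled ratios of paired subunits (linear axes from 0) in each library, with mean and SD beside each group (n = 4). The groups overlap in all 4 ratios, and CT replicate 2 (open diamond) has the highest ratio of ACTL6B to ACTL6A (29.1) and of DPF1 plus DPF3 to PHF10 (10.9) and the lowest of SMARCA2 to SMARCA4 (0.0582).

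The comparison of GDNF with CT asks whether the GDNF mimic changed these genes relative to its scrambled form. None of the 10 passed edgeR's quasi-likelihood test with Benjamini-Hochberg adjustment over all genes (adjusted p = 0.9999 for each), where 0% of the 19999 genes tested were called in either direction. Of the 10 genes, 4 had a positive and 6 a negative log2 fold change of GDNF over CT, with a median of -0.046 against -0.0098 over all genes tested. None had an unadjusted p under 0.05, against 176 of the 19999 genes tested. That is a smaller share than the 0.05 that evenly spread p-values would give. Without CT replicate 2 the number was 391 of 20354 genes. A count of 0 among 10 genes therefore says little. In none of the 10 did the groups fail to overlap, where 0.93% of all genes tested had groups that did not overlap.

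Fold changes were small against their intervals. The progenitor forms had log2 fold changes of 0.11 for ACTL6A (95% confidence interval -0.35 to 0.57), 0.12 for PHF10 (-0.40 to 0.65) and 0.052 for SS18 (-0.30 to 0.41). The neuronal forms had -0.10 for ACTL6B (-0.51 to 0.30), -0.094 for DPF1 (-0.52 to 0.33), -0.27 for DPF3 (-0.73 to 0.19) and 0.068 for SS18L1 (-0.16 to 0.30). SMARCA2 had -0.035 (-0.27 to 0.20), SMARCA4 -0.056 (-0.43 to 0.32) and DPF2 -0.085 (-0.39 to 0.22). DPF3 had the smallest p of the 10 (0.221 in edgeR, unadjusted).

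Leaving out CT replicate 2 reversed the signs of all 3 progenitor forms and of ACTL6B and DPF1, but not those of DPF3 (-0.10) and SS18L1 (0.060). With all 8 libraries 3 of 3 progenitor forms and 1 of 4 neuronal forms had a positive fold change, and without CT replicate 2 these counts were 0 of 3 and 3 of 4. None of the 10 passed in either case (smallest unadjusted edgeR p without that library 0.179, for SMARCA4). With offsets for the GC content and length of the transcripts the counts were 2 of 3 and 3 of 4, and the intervals narrowed, for example to -0.11 to 0.16 for ACTL6B, -0.10 to 0.18 for DPF1, -0.11 to 0.21 for PHF10 and -0.083 to 0.16 for SMARCA4.

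**Figure D3:**
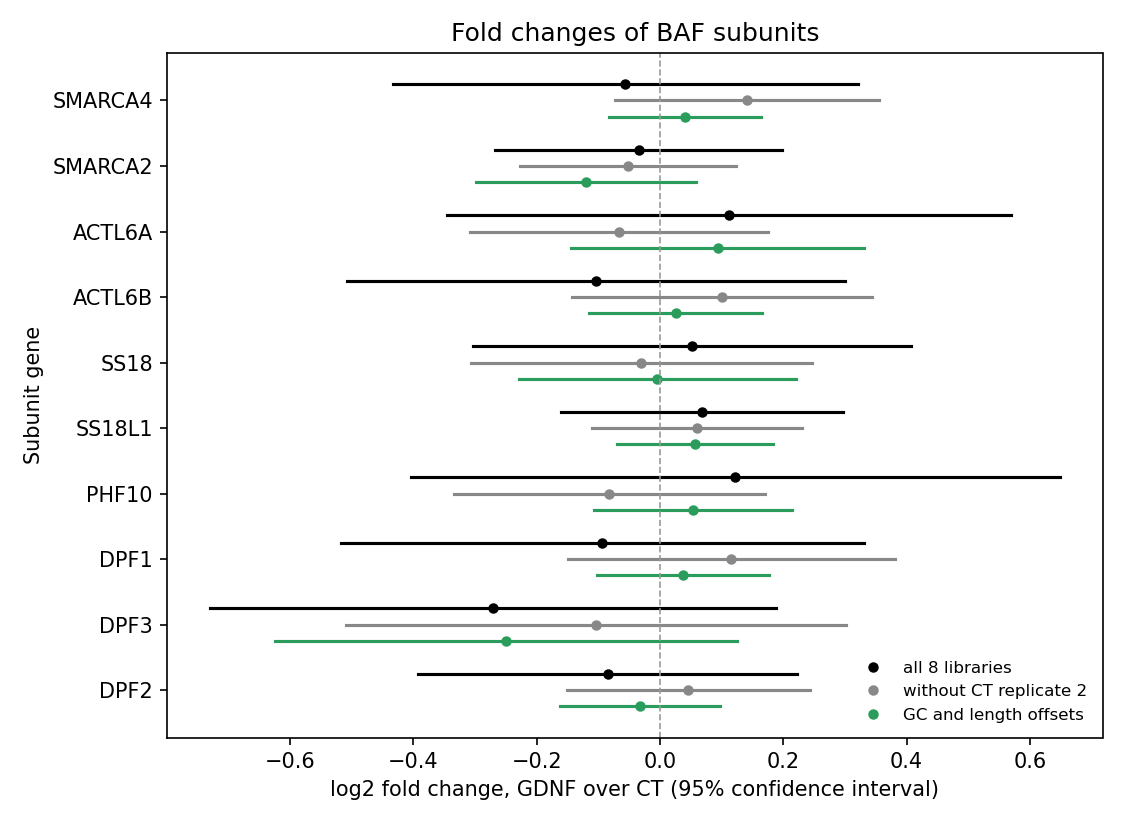
Log2 fold changes of GDNF over CT with 95% confidence intervals from edgeR for the 10 genes, with all 8 libraries, without CT replicate 2 and with GC and length offsets. All intervals include 0, and the point estimates of ACTL6A, ACTL6B, PHF10, DPF1, DPF2, SS18 and SMARCA4 change sign without CT replicate 2.

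Among the 7 exchanged genes the progenitor forms had the lower GC content. The longest annotated transcripts of the progenitor forms had a GC content of 37.3% (PHF10), 42.5% (SS18) and 42.6% (ACTL6A). Those of the neuronal forms had 46.8% (SS18L1), 48.6% (DPF3), 59.3% (ACTL6B) and 62.6% (DPF1), against a median of 48.0% over the genes tested. Outside these, SMARCA2 had 42.9%, DPF2 51.4% and SMARCA4 61.4%.

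CT replicate 2 deviated from the other 7 libraries along this axis. On the log2 scale it was lower by -1.07 for PHF10, -0.90 for ACTL6A and -0.35 for SS18, and higher by 0.62 for ACTL6B, 0.63 for DPF1, 0.64 for DPF3 and 0.58 for SMARCA4. SS18L1 and SMARCA2 moved little, at -0.087 and -0.058. Across the 10 genes the deviation and the GC content had a Spearman correlation of 0.842 and a Pearson correlation of 0.847, which is a description of genes that share 1 library.

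After the GC and length trend of each library was subtracted, the deviations of CT replicate 2 shrank to -0.17 for PHF10, -0.0063 for ACTL6B, -0.052 for DPF1 and -0.12 for SMARCA4. Those of ACTL6A (-0.43) and DPF3 (0.49) remained large, and that of SMARCA2 grew to 0.33. The median coefficient of variation of the 10 genes was 19.1% as measured, 11.6% without CT replicate 2 and 5.61% with the trend subtracted. With the trend subtracted the ratio of DPF1 plus DPF3 to PHF10 ranged over the 8 libraries from 3.68 to 4.20, that of ACTL6B to ACTL6A from 10.02 to 14.99, and that of SS18L1 to SS18 from 8.86 to 11.97. The ratio of SMARCA2 to SMARCA4 ranged from 0.0740 to 0.113. Its highest value was that of CT replicate 2, which had the lowest (0.0582) before subtraction. Within GDNF, replicates 3 and 4 had more ACTL6B, DPF1, DPF2, DPF3 and SMARCA4 and less ACTL6A than replicates 1 and 2. PHF10 and SS18 were lowest in replicate 4, but replicate 3 had the most SS18 of GDNF and more PHF10 than replicate 2. The Spearman correlation across genes between deviation and GC content was 0.496 in GDNF replicate 4 and -0.033 in replicate 3, against -0.565 and -0.545 in replicates 1 and 2. Each of these deviations is from the mean of all other libraries, which includes CT replicate 2, whose own correlation was 0.806. What part that library has in these values was not tested.

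**Figure D4:**
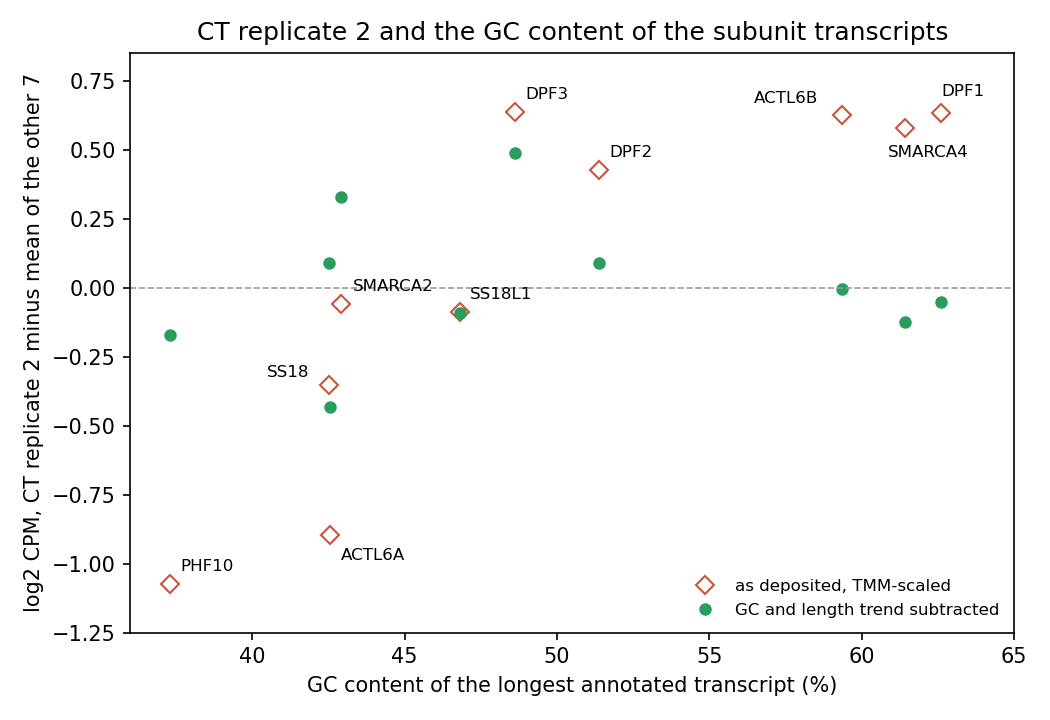
Deviation of CT replicate 2 from the mean of the other 7 libraries (log2 CPM) against the GC content of the longest annotated transcript of each of the 10 genes, as measured (diamonds, labelled) and after the GC and length trend was subtracted (dots). Before subtraction PHF10 and ACTL6A lie at -1.07 and -0.90 and ACTL6B, DPF1 and SMARCA4 between 0.58 and 0.63.

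The remaining subunits of BAF and its sister complexes were expressed on both coatings, and 0 of the 21 listed passed the test (0% of all genes tested). Of these 21 genes 7 had a positive and 14 a negative fold change, with a median of -0.073, and without CT replicate 2 the split was 13 and 8. With GC and length offsets it was 9 and 12. Over all genes tested, with all 8 libraries, 9521 fold changes were positive and 10478 negative. The scaffold subunit SMARCC2 stood at 207 TPM (range 189.5 to 250 over the 8 libraries) and its relative SMARCC1, the form typical of mouse embryonic stem cells, at 72.8 TPM (55.1 to 80.1), without overlap. Among the SMARCD subunits, SMARCD1 stood at 133 TPM, SMARCD3 at 108 TPM and SMARCD2, known from blood cell development, at 10.7 TPM. The order of the first pair depends on the length used, since over the longest transcript SMARCD1 stood at 141 TPM and SMARCD3 at 175 TPM. SMARCC2 and SMARCC1 then stood at 313 and 65.7 TPM. Exons antisense to other genes make up 13.8% of SMARCD3 and 6.01% of SMARCC2.

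Subunits that set complex type were also present. ARID1A and ARID1B, which define the canonical BAF complex, stood at 120.0 and 34.9 TPM, but at 168 and 108 TPM over the longest transcript, the exon union of ARID1B being 44677 bases and its longest transcript 10813. PBRM1 and ARID2, which define the PBAF complex, stood at 107 and 28.5 TPM. BRD9, of the non-canonical complex, stood at 30.9 TPM, or 45.8 TPM over the longest transcript. The zinc finger subunits BCL11A and BCL11B were low, at 1.52 and 0.581 TPM, or 3.83 and 0.452 TPM over the longest transcript. By p, SMARCD2 came first of these 21, with 7.86 ± 0.975 CPM in GDNF and 9.31 ± 1.57 CPM in CT (log2 fold change -0.24, -0.60 to 0.11, adjusted p = 0.9999 in edgeR). ARID2 came last, with 74.1 ± 5.88 CPM in GDNF and 72.9 ± 19.2 CPM in CT (0.024, -0.40 to 0.45, adjusted p = 0.9999 in edgeR).

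Regulators of the subunit exchange were low for the repressor and detectable for the microRNA host transcripts. REST averaged 3.73 ± 0.737 CPM in GDNF and 3.27 ± 0.915 CPM in CT. Its corepressors RCOR1 and RCOR2 averaged 21.9 ± 1.07 and 61.2 ± 7.29 CPM in GDNF, against 22.2 ± 2.04 and 68.5 ± 16.5 CPM in CT. LINC00461, the host transcript of MIR9-2, averaged 14.8 ± 3.02 CPM in GDNF and 14.7 ± 4.79 CPM in CT. The other miR-9 host transcripts were close to the detection limit, with 5 to 25 reads per library for C1orf61, which hosts MIR9-1, and 3 to 16 for MIR9-3HG. LINC00599 and MIR124-2HG, which host genes of another microRNA known to act on ACTL6A, averaged 36.2 ± 6.83 and 70.2 ± 17.3 CPM in GDNF, against 36.2 ± 1.31 and 70.2 ± 12.6 CPM in CT. C1orf61 did not pass the filter on low counts, and 0 of the other 7 genes passed in edgeR (0 also at an unadjusted p under 0.05, and 0% of all genes tested).

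Markers of other cells that could carry progenitor subunits were at similar summed levels in both groups. The 10 neural progenitor markers summed to 462 to 623 CPM in GDNF and 482 to 588 CPM in CT, of which VIM and NES, also found outside progenitors, made up most, and PAX6, HES5 and SOX1 averaged under 1 CPM. SOX2 averaged 6.28 ± 0.346 CPM in GDNF and 7.55 ± 0.535 CPM in CT, with groups that did not overlap, and did not pass (log2 fold change -0.27, adjusted p = 0.9999 in edgeR). It was singled out after its values were seen. The 10 cell cycle genes summed to 36.8 to 42.4 CPM in GDNF and 37.6 to 41.7 CPM in CT, with CDK1, BUB1, AURKB and RRM2 under 1 CPM. The 5 pluripotency genes summed to 1.14 to 1.94 CPM in GDNF and 1.59 to 2.495 CPM in CT. Most of this was LIN28A, while POU5F1, NANOG, ZFP42 and DPPA4 averaged under 1 CPM. The 7 astrocyte genes summed to 254 to 321 CPM in GDNF and 155 to 336 CPM in CT, nearly all of it SLC1A2, while GFAP, S100B, ALDH1L1 and SLC1A3 averaged under 1 CPM. The 6 oligodendrocyte genes summed to 47.9 to 55.1 CPM in GDNF and 49.2 to 53.8 CPM in CT. Most of this was MBP (48.4 CPM in GDNF and 47.9 CPM in CT), while OLIG1, OLIG2, PDGFRA and SOX10 averaged under 1 CPM. The 6 fibroblast genes summed to 59.5 to 76.3 CPM in GDNF and 49.4 to 75.9 CPM in CT. These sums were mostly COL1A1, COL1A2 and COL3A1, while PDGFRB, LUM and DCN averaged under 1 CPM. What part these cells have in the levels of ACTL6A, PHF10 and SS18 was not tested.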

How the data were processed

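The authors deposited raw read counts per Ensembl gene, 1 column per library, not normalized. RNA came from TRIzol extracts and went into TruSeq mRNA libraries, per the labels' protocols. STAR, HTSeq, cutadapt, FastQC and DESeq2 with GRCh38 are named per the submitters' processing notes. Versions, strand setting and the treatment of multi-mapping reads were not given in the sources used here. Without strand, reads of a gene and its antisense partner cannot be told apart.

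A filter on low counts (filterByExpr, with a minimum count of 10 and a minimum total of 15 as its settings) left 19999 genes holding 99.9% of all reads. The minimum count need not be met in every library, and MIR9-3HG passed with 3 to 16 reads per library. GDNF and CT were compared with edgeR 4.0.16 (quasi-likelihood, TMM, group as the only term, R 4.3.3, false discovery rate 0.05). The fit was tested on simulated counts. CPM use TMM-scaled totals, and TPM use exon unions of GENCODE 29, whose coordinates matched the table for 98.6% of 58275 shared genes. Ratios were tested by exact permutation over 70 splits. At these depths a count of 0 in a library allows up to 3 counts, or 0.0856 to 0.104 CPM, for counting error alone. Members share no 50-mer with each other in annotated transcripts.

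Alternatives were DESeq2 1.42.0, RLE size factors, no filter, a replicate block, GC and length offsets (splines on each library's deviations), limma-voom 3.58.1 with quality weights, the longest transcript as length, and leaving out each library. All 10 members and the regulators were named, and of the other subunits those with the smallest and largest p, besides examples by role chosen after their values were seen. Members, lists and alternatives were chosen with earlier results of these data known.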

Additional observations from a re-analysis of the deposited data

Results flagged for a closer look

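In 4 of 28 groups of 4 values, for the 10 genes and 4 ratios, a single library was well away from the other 3, which chance gives in about 1 group in 20. CT replicate 2 was the library in 3 of them. It was the highest of CT for SMARCA4, at 1100.4 CPM, while CT replicates 1, 3 and 4 had 665 to 738 CPM. It was the highest for the ratio of ACTL6B to ACTL6A, at 29.1, and the lowest for the ratio of SMARCA2 to SMARCA4, at 0.0582. With the GC and length trend subtracted CT replicate 2 instead had the highest ratio of SMARCA2 to SMARCA4, at 0.113. GDNF replicate 4 was the highest of GDNF for the ratio of SS18L1 to SS18, at 12.1. The 28 groups share libraries and genes, so the flags are not separate events. SMARCA4 in CT replicate 2 enters both its own flag and that of SMARCA2 to SMARCA4.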

How the results depend on the processing

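No alternative brought any of the 10 genes or 4 ratios past its threshold, and the number of genes called by edgeR, DESeq2 or limma-voom stayed at 0 throughout (112 to 1024 genes at an unadjusted p under 0.05). Of 140 values of the 10 genes under alternatives, 17 changed sign. With GC and length offsets these were SMARCA4 (0.040), ACTL6B (0.025), DPF1 (0.037) and SS18 (-0.0042). With limma-voom quality weights they were SMARCA4 (0.015), PHF10 (-0.066), DPF1 (0.0087), DPF2 (0.012) and SS18 (-0.011).

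Leaving out 1 library at a time gave ranges that crossed 0 for ACTL6A (-0.067 to 0.22), ACTL6B (-0.18 to 0.10), DPF1 (-0.19 to 0.12), DPF2 (-0.15 to 0.046), PHF10 (-0.082 to 0.25), SMARCA4 (-0.14 to 0.14) and SS18 (-0.031 to 0.17), in each case with the sign changed without CT replicate 2, and for SS18 also without GDNF replicate 3 (-0.017). The ranges of DPF3 (-0.39 to -0.10), SMARCA2 (-0.051 to -0.012) and SS18L1 (0.044 to 0.10) did not cross 0. For the log2 ratios they were -0.39 to 0.16 (ACTL6B to ACTL6A), -0.51 to 0.18 (DPF1 plus DPF3 to PHF10), -0.089 to 0.091 (SS18L1 to SS18) and -0.18 to 0.078 (SMARCA2 to SMARCA4). With the GC and length trend subtracted these 4 differences were -0.086, -0.028, 0.064 and, with its sign changed, -0.16.

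Counts of positive fold changes were chosen for recomputing after the data were seen. Without CT replicate 2 they were 13 of the other subunits, 0 of the progenitor forms and 3 of the neuronal forms. With the offsets they were 9 of the other subunits, 2 of the progenitor forms and 3 of the neuronal forms. Over the longest transcript the levels were 39.1 TPM (SMARCA2), 476 (SMARCA4), 35.5 (ACTL6A), 325 (ACTL6B), 186 (DPF1), 75.3 (DPF2), 23.0 (SS18) and 143 (SS18L1). Same-numbered libraries had correlations of 0.27, -0.32, 0.17 and -0.42 and share only a number. With the replicate block the ratio differences stayed, in the same order, at -0.24, -0.27, 0.012 and 0.00060 (exact sign-flip p of 0.875, 0.75, 1 and 1, smallest possible 0.125). Apart from the construction of each alternative, the cause of these changes was not tested. Depth limits DPF3 (85 to 145 reads per library) and the host transcripts C1orf61 and MIR9-3HG.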
